A study of Mus musculus with 18 samples.

Results

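Genes that make, use and break down ceramide were described in the liver of mice fed linseed oil or palm oil. Sphingolipids are membrane lipids built on a long-chain base that cells make from serine and palmitoyl-CoA, the activated form of palmitate, the main saturated fatty acid of palm oil. The base is acylated by ceramide synthases and desaturated to ceramide, and ceramide is then turned into sphingomyelin or glucosylceramide, or cleaved again to sphingosine. In liver these lipids are known as membrane and lipoprotein components, and ceramide is studied there for its links to insulin signalling and fat accumulation.

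The genes were Sptlc1, Sptlc2, Cers2, Cers5, Cers6, Degs1, Sgms1, Ugcg, Smpd1 and Asah1, taken by symbol; the ceramide synthases stand on the array under their older names Lass2, Lass5 and Lass6 with the same RefSeq accessions. They were 10 of 31709 names and 12 of 39429 non-control probes on the array. Of these 10 genes, 9 could be tested among 15951 genes, and Cers6 was too dim. Samples were livers of 18 male C57BL/6J mice, an inbred strain, all on a high-fat diet with 51.1% of energy from lipid for 5 weeks, from 8 to 13 weeks of age. The fat was linseed oil in 8 mice (9.7% saturated, 22.5% monounsaturated and 66.7% polyunsaturated fatty acids, with 49.7% alpha-linolenic acid) or palm oil in 10 mice (55.6% saturated, 34.8% monounsaturated and 8.8% polyunsaturated). No group on a low-fat diet was analysed here, so a difference between the diets has no side that serves as baseline.

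One liver went on each 1-colour array, and a level is the log2 intensity of a probe relative to the 75th percentile of its array. Levels of different probes are not comparable, and differences are given as linseed minus palm. The arrays had 17258 to 22445 probes well above background, and fell into 5 slides that each held both diets. Slide 1 (linseed replicate 5, palm replicates 5 and 6) is the set of arrays scanned together whose headers give no barcode, and was taken to be a slide. Slide 5 held linseed replicate 8 and palm replicates 9 and 10. Differences within slide 1 and within slide 5 therefore each rest on a single linseed liver. Hepatocyte markers such as Alb and Apoa1 were bright on both diets. Of 50 tested markers of hepatocytes and other liver and blood cells, 0 passed an adjusted p of 0.05 in limma, where 0.759% of all genes did. Cfd (2.54 ± 0.88) and Cd4 (−0.40) had an unadjusted p under 0.05, which 10.2% of all genes had. Cfd was the only 1 of 5 listed adipocyte markers that could be tested. Cd4 was 1 of 5 tested lymphocyte markers, and the others differed by −0.16 to 0.01. The part of these markers in the differences described here was not tested. In a whole-liver sample, fewer cells of a type and less RNA per cell cannot be told apart.

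None of the 9 tested genes differed between the diets at an adjusted p under 0.05 (limma, Benjamini-Hochberg over all 15951 genes), where 0.759% of all genes did (121 genes). The count of 0 held with slide as a fixed block (0.821% of all genes called) and as a random block (1.25%). At an unadjusted p under 0.05 there were 2 genes, Sgms1 and Ugcg, against 10.2% of all genes, and with slide as a fixed block 1 gene, Sgms1, against 13.2%. The median difference of the 9 genes was 0.05 on the log2 scale, beside −0.00383 for all genes, with 6 genes positive and 3 negative. For 8 of the 9 genes the 95% interval of the difference lay within 0.5 of 0 on the log2 scale, as it did for 72.4% of all genes; Sptlc2 was the exception. The levels of the 8 linseed and 10 palm livers overlapped for all 9 genes; only 0.219% of all genes had groups that did not.

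**Figure D1:**
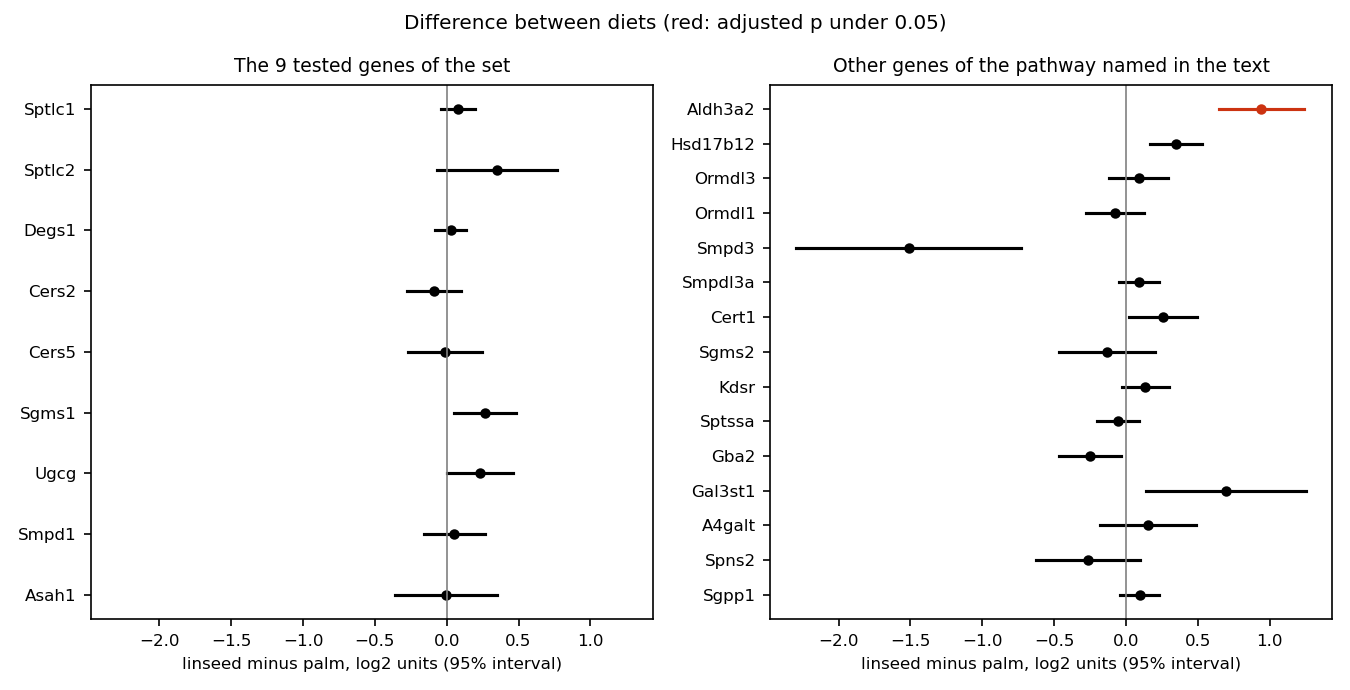
Difference in log2 level, linseed minus palm, for the tested ceramide genes and the named genes of the wider pathway (points), with 95% intervals from limma (lines); red marks an adjusted p under 0.05. All 9 ceramide genes have an adjusted p above 0.05 and differences between −0.09 and 0.35, and Aldh3a2 at 0.94 is the gene in red.

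Serine palmitoyltransferase, the enzyme that joins serine to palmitoyl-CoA and starts the pathway, is built around the subunits Sptlc1 and Sptlc2. Sptlc2, which carries the catalytic site, was read by 2 probes on chromosome 12 (mm9, minus strand), at chr12:88683609-88683668 and chr12:88649448-88649507. They are shown because they gave different values for the same gene; the first 30 of 60 bases of each, 5′ to 3′ as deposited with the arrays, are as follows. Whether a probe lies in a coding exon or a UTR was not determined here.

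Sptlc2, brighter probe: tgccattgtttatggtcagcctcggacaag
Sptlc2, dimmer probe: caagaagagaggcagtgtcatttgtgaagc

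On the brighter probe of Sptlc2 the lowest, median and highest levels were −2.74, −2.51 and −0.92 on linseed and −3.26, −2.62 and −2.13 on palm. Linseed replicate 6 stood apart at −0.92, with the other linseed livers between −2.74 and −2.26, inside the palm range. The difference was 0.35 ± 0.20 (SE, n = 8 and 10; adjusted p = 0.599, limma), with a 95% interval from −0.07 to 0.77, the widest of the 9 genes. It was 0.15 ± 0.12 without linseed replicate 6, 0.04 with normexp background correction and 0.17 in the authors' deposited value table, and within the slides it was 0.14, 0.28, −0.03, 0.68 and 0.63 for slides 1 to 5. The dimmer probe placed the same liver at −3.34, within its group, and gave 0.07 ± 0.10 (adjusted p = 0.881). The high value of that liver was thus seen on 1 of the 2 probes.

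**Figure D2:**
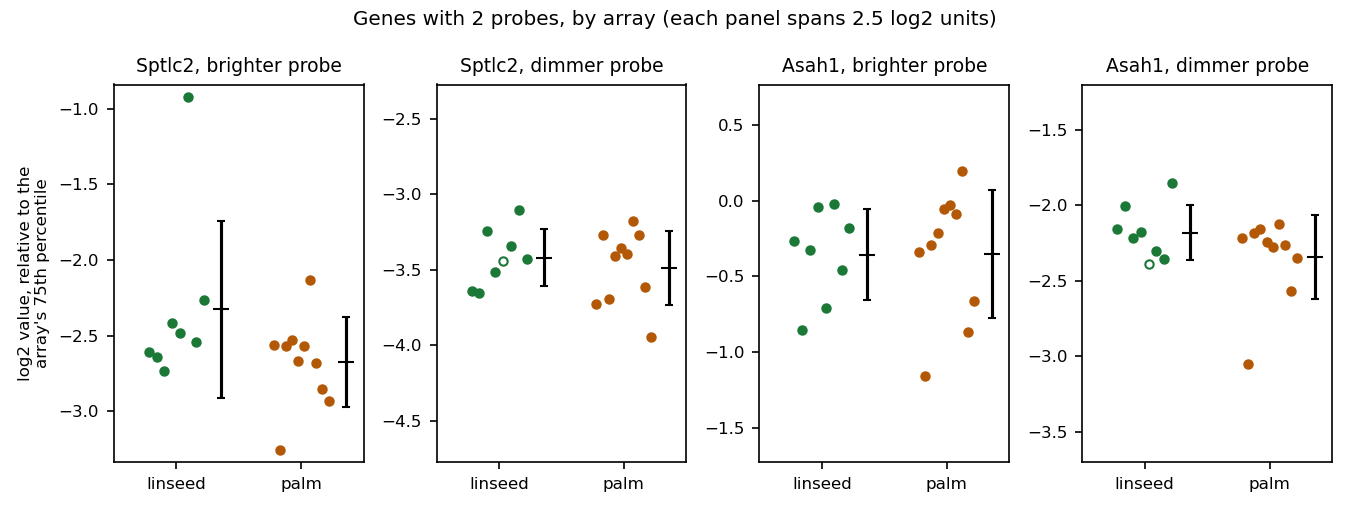
Log2 levels of the brighter and the dimmer probe of Sptlc2 and of Asah1 in each liver by diet, with the mean ± SD as a black bar; open circles are spots not well above background. For Sptlc2, linseed replicate 6 lies far above the others on the brighter probe (−0.92) and inside its group on the dimmer probe (−3.34).

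Sptlc1, the partner subunit of Sptlc2, was among the genes with the least spread on the array. Its levels were −0.20, −0.11 and 0.07 on linseed and −0.37, −0.14 and −0.01 on palm (lowest, median, highest). The pooled SD within diets was 0.09, a spread that only 1.79% of all tested genes undercut. The 3 highest livers were all linseed-fed and the 2 lowest palm-fed, while the rest intermingled. The difference was 0.08 ± 0.06 (adjusted p = 0.678), a ratio of linseed to palm of 1.06 with a 95% interval from 0.974 to 1.15. The Sptlc2 level relative to Sptlc1 in the same liver, which does not depend on the scaling between arrays, was −2.26 ± 0.60 on linseed (SD, n = 8) and −2.52 ± 0.33 on palm (SD, n = 10), a difference of 0.27 (exact permutation test over 43758 reassignments, two-sided, p = 0.272; 0.797 after adjustment over 3 pairs). It was 0.06 without linseed replicate 6 and −0.01 with normexp background correction.

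Ceramide synthases attach the fatty acyl chain, and each prefers chains of a certain length: Cers2 very long ones, Cers5 and Cers6 palmitoyl-length ones. Cers2, the main ceramide synthase of liver, had levels of 2.71, 2.91 and 3.103 on linseed and 2.68, 2.99 and 3.27 on palm. The groups shared most of their range, with 4 palm livers above the highest linseed liver. The difference was −0.09 ± 0.09 (adjusted p = 0.807), a ratio of 0.940 with a 95% interval from 0.824 to 1.07.

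Cers5 had levels of −1.36, −0.63 and −0.42 on linseed and −1.001, −0.69 and −0.32 on palm. The medians lay close together, and the lowest liver was linseed replicate 5. The difference was −0.01 ± 0.12 (adjusted p = 0.986; 95% interval −0.27 to 0.24), and it was −0.61 within slide 1, which holds that liver, against −0.10 to 0.16 within the other slides. Without linseed replicate 5 it was 0.08. The Cers5 level relative to Cers2 in the same liver was −3.60 ± 0.36 on linseed and −3.67 ± 0.38 on palm (exact permutation test, two-sided, p = 0.659; 0.797 adjusted over 3 pairs).

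Cers6 is read by a single probe at chr2:68948945-68949004 (mm9, plus strand), shown because its signal set the limit on this gene; its first 30 bases are as follows.

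Cers6: tattaatatctctgtctaatgttctcccaa

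The Cers6 probe was well above background in 4 of 8 linseed and 2 of 10 palm livers, short of the 8 arrays required for a test. Its levels averaged −3.81 ± 0.41 on linseed (SD, n = 8) and −4.28 ± 0.60 on palm (SD, n = 10), and those of livers not well above background are only bounds. With no filter on dim probes the difference was 0.47 ± 0.24 (unadjusted p = 0.0653, adjusted p = 1.00 over 31137 genes, limma). A comparison of Cers6 with Cers2 within livers was planned and could not be made for the same reason.

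Degs1 encodes the desaturase that introduces the double bond that turns dihydroceramide into ceramide. It varied least of the tested genes of ceramide metabolism, with levels of 3.46, 3.55 and 3.62 on linseed and 3.38, 3.55 and 3.65 on palm. The 8 linseed livers all lay inside the palm range. The pooled SD was 0.08, and 0.389% of all tested genes had a smaller one. The difference was 0.03 ± 0.05 (adjusted p = 0.902), and the 95% interval of the linseed to palm ratio ran from 0.947 to 1.10. It turned to −0.01 with quantile normalization, with the 75th percentile over unmarked spots and in the authors' deposited value table.

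**Figure D3:**
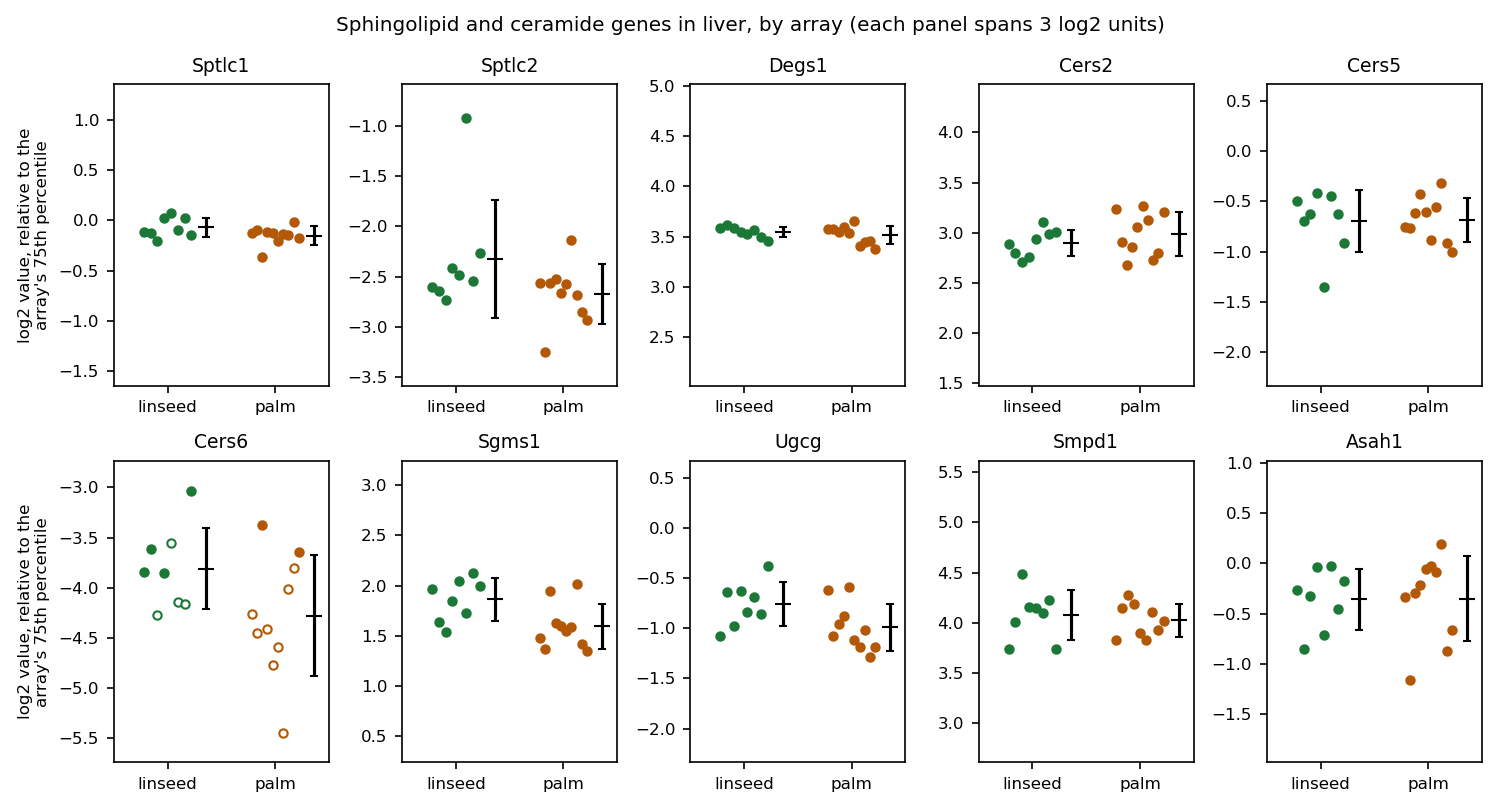
Log2 level of each ceramide gene in each liver by diet (points; open circles are spots not well above background), with the mean ± SD as a black bar. The diets overlap in every panel; Sgms1 and Ugcg have the higher means on linseed (1.86 against 1.59, and −0.76 against −0.99).

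Ceramide leaves this stage through Sgms1, which makes sphingomyelin in the Golgi, and Ugcg, which adds glucose to start the glycosphingolipids. The 2 genes had the smallest unadjusted p-values of the set. Their probes, at chr19:32198259-32198318 (Sgms1, minus strand) and chr4:59235333-59235392 (Ugcg, plus strand) in mm9, begin with the following 30 bases.

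Sgms1: aggtttgctcgcctggggttttatacagtc
Ugcg: tttgttgatctcagtatgggcaaagaaaca

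Sgms1 levels were 1.54, 1.91 and 2.13 on linseed and 1.35, 1.57 and 2.01 on palm. Of the 8 linseed livers, 7 lay above the palm median, 2 lay above every palm liver, and 4 palm livers lay below every linseed liver. The difference was 0.27 ± 0.10, a 1.20-fold higher mean on linseed (95% interval 1.04 to 1.40), with p = 0.0180 unadjusted and 0.349 adjusted over all genes (limma). Within slides 1 to 5 it was 0.47, 0.38, −0.09, 0.13 and 0.61, positive on 4 slides and negative on slide 3. A fixed block for slide gave 0.26 (adjusted p = 0.295), and leaving out each liver in turn gave 0.23 to 0.31 (adjusted p from 0.178 to 0.545).

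Ugcg levels were −1.07, −0.76 and −0.38 on linseed and −1.29, −1.05 and −0.58 on palm. Again 7 of 8 linseed livers lay above the palm median, and 5 palm livers lay below every linseed liver. The difference was 0.23 ± 0.11, a 1.17-fold higher mean on linseed (95% interval 1.00 to 1.37), with p = 0.0453 unadjusted and 0.478 adjusted (limma). It was carried unevenly by the slides, at 0.02, −0.01, 0.12, 0.33 and 0.85 for slides 1 to 5. On slide 5 the only linseed liver was replicate 8, at −0.38 the highest of its group. Without slide 5 the Ugcg difference was 0.12, with normexp background correction 0.13, and 0.14 in the authors' deposited value table.

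**Figure D4:**
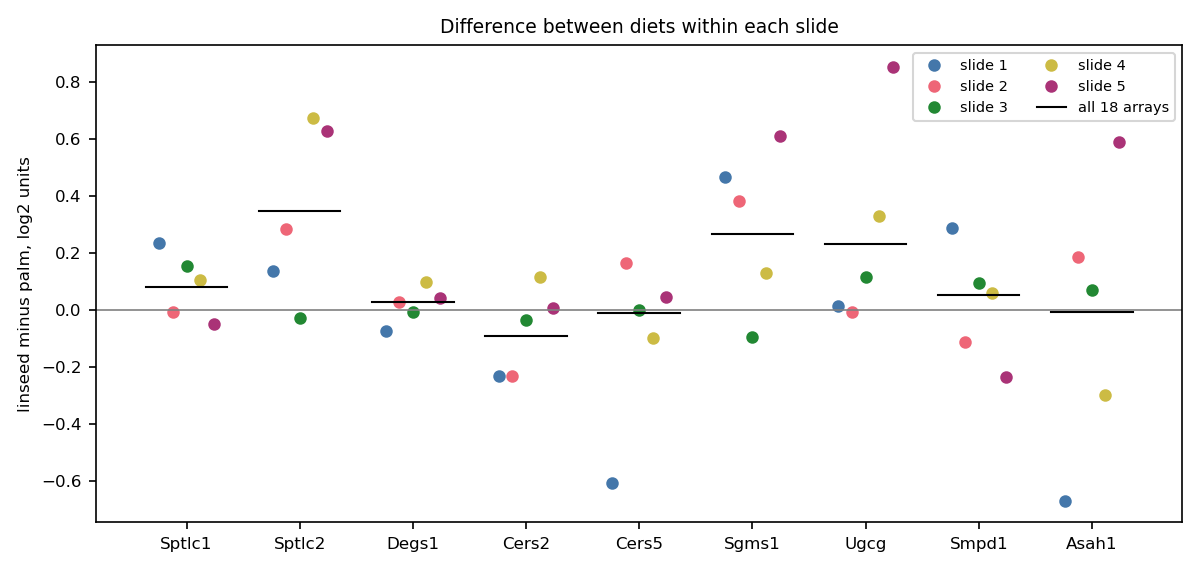
Difference in log2 level, linseed minus palm, within each of the 5 slides (points) and over all 18 arrays (black line) for each tested ceramide gene. No gene has the same sign on every slide; Ugcg reaches 0.85 on slide 5 and −0.01 on slide 2.

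The Ugcg level relative to Sgms1 in the same liver was −2.62 ± 0.30 on linseed (SD, n = 8) and −2.59 ± 0.30 on palm (SD, n = 10), a difference of −0.04 (exact permutation test, two-sided, p = 0.797; 0.797 adjusted over 3 pairs). None of the 9 genes had the same sign within all 5 slides, which 12.2% of all tested genes had (6.66% higher and 5.57% lower on linseed). After diet and slide were removed, the genes whose levels followed Sgms1 most closely over the 18 arrays were Gm3697 (r = 0.888), LOC100044430 (r = 0.864) and Ppp4r3a (r = 0.853), out of 14715 genes compared. These correlations were picked as the highest of 14715, which inflates them, and they describe arrays that share slides and scaling. The diet differences of the 3 genes were −0.08, 0.05 and −0.12, with none called.

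Smpd1 and Asah1 are the lysosomal enzymes of breakdown: acid sphingomyelinase, which releases ceramide from sphingomyelin, and acid ceramidase, which cleaves ceramide to sphingosine. Smpd1 levels were 3.73, 4.13 and 4.49 on linseed and 3.83, 4.02 and 4.27 on palm, where 1 palm liver had no value because its spot was marked by the image software. The linseed livers spanned the wider range and reached past the palm range on both sides. The difference was 0.05 ± 0.10 (n = 8 and 9; adjusted p = 0.911), a ratio of 1.04 with a 95% interval from 0.895 to 1.20. It was −0.01 in the authors' deposited value table, −0.00354 without slide 1 and −0.01 without linseed replicate 3.

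Asah1 was read by 2 probes on chromosome 8 (mm9, minus strand), at chr8:42426681-42426740 and chr8:42432286-42432345, whose differences had opposite signs. Their first 30 bases are as follows.

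Asah1, brighter probe: gacaccacatagaaattgccagttcatttc
Asah1, dimmer probe: gactgttttcaaggctacaagttttgttgg

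On the brighter probe Asah1 levels were −0.86, −0.30 and −0.02 on linseed and −1.16, −0.25 and 0.20 on palm. The palm livers enclosed all linseed livers. The difference was −0.01 ± 0.17 (adjusted p = 0.995; ratio 0.996, 95% interval 0.779 to 1.27), and it ran from −0.67 within slide 1 to 0.59 within slide 5. The dimmer probe gave 0.16 ± 0.11 (adjusted p = 0.660), and the mean of both probes 0.08 ± 0.13. The brighter probe's difference was far smaller than its SE, so its sign carries no weight. The Asah1 difference changed sign in 12 of 36 alternatives, and neither probe passed the test.

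Slide accounted for a share of 0.0455 (Ugcg) to 0.693 (Degs1) of the variance left within diets, where the median over all tested genes was 0.384. For Cers5 (0.629) and Smpd1 (0.575) it was also above 0.5. The share was not corrected for the number of slides, so part of it arises even without a slide effect. What the slides stand for beyond the scan group given in the file headers was not tested.

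The wider pathway was described with 76 other genes in 8 lists, of which 56 could be tested; 16 were not well above background on enough arrays (among them Sptlc3, Cers3, Degs2 and Acer2), 3 were lost to marked spots, and Cers1 had no probe under that name. Of the 56, 1 was called higher on linseed than on palm and 0 lower, at shares of all genes of 0.57% and 0.188%. The lists were written with earlier results of these data known, so the counts cannot be weighed against those shares. At an unadjusted p under 0.05 there were 8 of 56, beside 10.2% of all genes, a count that cannot be weighed against its share either. Within all 5 slides 3 of the 56 were higher and 2 lower on linseed, beside 6.66% and 5.57% of all genes, with the same limit. Positive and negative differences were 28 each, with a median of 0.01 on the log2 scale.

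The gene called higher on linseed was Aldh3a2, the fatty aldehyde dehydrogenase, which also oxidises the aldehyde released when sphingosine 1-phosphate is broken down. Its levels were 2.09, 2.30 and 2.73 on linseed and 0.96, 1.38 and 2.01 on palm, so the groups did not overlap. The difference was 0.94 ± 0.14 (1.92-fold, adjusted p = 0.00217, limma), and it was higher on linseed within 5 of 5 slides. The call was lost without slide 2 (0.84, adjusted p = 0.0565) and with the replicate number as a block (0.95, adjusted p = 0.0883).

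Among the 10 tested genes that supply acyl-CoA to ceramide synthases, Hsd17b12, a reductase of fatty acid elongation, came next. Its levels were 2.61, 2.85 and 3.22 on linseed and 2.21, 2.61 and 2.74 on palm. The difference was 0.35 ± 0.09 (adjusted p = 0.0683, limma), positive within 5 of 5 slides. It passed when slide was a fixed block (adjusted p = 0.0264) or a random one (adjusted p = 0.0196), with the filter on all arrays (0.0497) and with trend and robust eBayes (0.0471). It missed the threshold with the percentile over unmarked spots (adjusted p = 0.611), with no filter on dim probes (0.245), with normexp (0.215), with the replicate number as a block (0.166) and in the authors' deposited value table (0.151).

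Smpd3, a neutral sphingomyelinase, had the smallest p of the 6 other tested genes of ceramide and sphingomyelin hydrolysis. Its levels were −4.68, −4.15 and −2.26 on linseed and −3.51, −2.19 and −1.24 on palm, and its probe was well above background in 4 of 8 linseed and 10 of 10 palm livers, so it met the filter through the palm group. The groups overlapped, with 6 of 8 linseed livers below every palm liver. The measured difference was −1.51 ± 0.37 (adjusted p = 0.0718, limma), in which the values of the 4 linseed livers not well above background are bounds. It was −2.40, −2.07, −1.36 and −2.03 within slides 1 to 4 and 0.59 within slide 5. It passed when slide was a random block (adjusted p = 0.0383) and not when it was a fixed one (adjusted p = 0.0816), and was −0.39 with normexp background correction (adjusted p = 0.257). Leaving out each liver in turn gave −1.73 to −1.38 (adjusted p from 0.0282 to 0.16, limma). It passed the test only without linseed replicate 6, linseed replicate 8 or palm replicate 4, at −1.71, −1.73 and −1.65. Those were the highest linseed livers and the lowest palm liver, so leaving any of them out widens the difference by construction. Of the 6 listed cholangiocyte markers 4 were tested, of which 0 were called and all 4 had negative differences. Among all 50 tested cell markers 32 differences were negative and 18 positive, beside 8187 negative and 7764 positive over all genes tested. The 5 tested neutrophil markers were also all negative. The summed level of the cholangiocyte markers was 0.835 to 1.63 on linseed and 0.929 to 4.03 on palm. Its part in the Smpd3 difference was not tested.

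**Figure D5:**
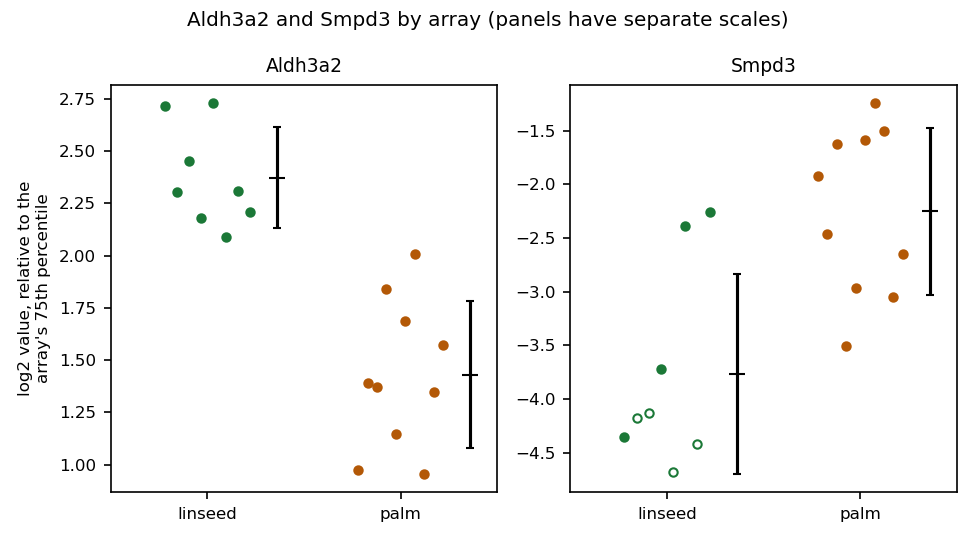
Log2 level of Aldh3a2 and Smpd3 in each liver by diet, with mean ± SD as a black bar; open circles are spots not well above background. Aldh3a2 does not overlap between the diets, while Smpd3 does and has 4 of 8 linseed livers not well above background.

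The brakes and partners of serine palmitoyltransferase gave no call. Of the 3 Ormdl genes, which restrain the enzyme, Ormdl3 differed by 0.09 ± 0.10 (adjusted p = 0.826) and Ormdl1 by −0.08 ± 0.10 (adjusted p = 0.856). Among the 4 other tested enzymes of de novo synthesis, Kdsr, which reduces the first long-chain product, differed by 0.14 ± 0.08 (adjusted p = 0.599). Sptssa, a small subunit of serine palmitoyltransferase, differed by −0.05 ± 0.07 (adjusted p = 0.855).

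Past ceramide, no gene of the lists of transport, glycosphingolipids and sphingosine 1-phosphate passed the test. Cert1, which carries ceramide from the endoplasmic reticulum to the Golgi, differed by 0.26 ± 0.11 (adjusted p = 0.433) and was higher on linseed within 5 of 5 slides, but by 0.08 with normexp and 0.16 in the authors' deposited value table. Sgms2, the second sphingomyelin synthase, differed by −0.13 ± 0.16 (adjusted p = 0.844). Gal3st1, which sulphates galactosylceramide, differed by 0.70 ± 0.27 (adjusted p = 0.344; 95% interval 0.14 to 1.26), with 0.31 under normexp and 0.40 in the authors' deposited value table. A4galt, the Gb3 synthase, differed by 0.15 ± 0.16 (adjusted p = 0.816), with −0.01 under normexp.

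Of the 10 tested genes of glycosphingolipid breakdown, 7 had negative and 3 positive differences, with a median of −0.05. Gba2, a non-lysosomal glucosylceramidase, differed by −0.25 ± 0.10 (adjusted p = 0.396). Among the 14 tested genes of sphingosine 1-phosphate, Spns2, its exporter, differed by −0.27 ± 0.17 (adjusted p = 0.652) and was lower on linseed within 5 of 5 slides. Sgpp1, a phosphatase of sphingosine 1-phosphate, differed by 0.10 ± 0.06 (n = 7 and 10; adjusted p = 0.664). Smpdl3a, a relative of acid sphingomyelinase, differed by 0.09 ± 0.07 (adjusted p = 0.689).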

How the data were processed

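RNA of each liver was hybridised to a 1-colour Agilent array; sample titles gave the groups. Per the file headers, the authors extracted spot intensity with Feature Extraction 9.5.3.1, as a signal background-subtracted within the array; the submitters' processing notes name version 9.5 and limma. A value table deposited by the authors, used only as an alternative, holds log2 values; how they were scaled was not given in the sources used here.

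The processed signal was put on the log2 scale and each array's 75th percentile over non-control probes (117 to 204 intensity units) subtracted. Marked spots (238 to 1703 per array) were left out and saturated spots kept. A probe was tested if well above background on at least 8 arrays with values on at least 6 arrays of each group, and a gene was read from its brightest tested probe. Diets were compared over all 15951 genes with limma 3.58.1 (R 4.3.3; a two-sided moderated test without covariates, p-values adjusted by Benjamini-Hochberg). The fit was also run on simulated data with independent noise for each gene and no slide effects, so that run does not bear on slide effects. The labels give no cages, so p-values measure only the spread between these mice, and the number of arrays limits the precision.

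Pairs of genes were compared within arrays by exact permutation. Alternatives were normexp with an offset of 50, other scalings, filters and probe summaries, slide and replicate blocks, trend and robust eBayes, the authors' table, and leaving out each array or slide. Other pathway genes are named if called or if among the smallest 2 p-values of their list; for the ceramide gene with the smallest p, the 3 genes most like it are named. A gene that the rule names is not reported here. Members and lists were chosen with earlier results of these data known. Older gene names were matched to current symbols with a RefSeq table; probe positions (mm9) and sequences come from the deposited array files.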

Additional observations from a re-analysis of the deposited data

Results flagged for a closer look

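Among 50 groups of values of named genes, 3 held a liver that stood apart from the rest of its group, where chance gives about 1 group in 20. Sptlc2 in linseed replicate 6 was at −0.922 on the log2 scale, with the other 7 linseed livers between −2.74 and −2.26; the second probe of Sptlc2 did not show it. Cert1 in palm replicate 9 was at −1.34, with the other palm livers between −1.98 and −1.64. Gba2 in palm replicate 10 was at 1.92, with the other palm livers between 1.27 and 1.6. Both palm livers were on slide 5.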

How the results depend on the processing

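No ceramide gene was called under any of 37 alternatives. Over all genes, calls numbered 121 in the reported fit, 68 with normexp, 42 with the percentile over unmarked spots, 44 with no filter on dim probes, 200 with slide as a random block, and 30, 20, 39, 45 and 55 without slides 1 to 5. Leaving out each array gave 51 to 142, lowest without linseed replicates 2, 3, 5 or 7 (59, 59, 51, 61) or palm replicates 1, 5, 6, 9 or 10 (64, 62, 79, 63, 71). Arrays with the same replicate number had correlations of deviations of 0.0951 to 0.491 where they shared a slide. For numbers 6 and 8, whose arrays lay on different slides, these were 0.00707 and −0.233. Whether the numbers mark pairs of mice was not tested. The replicate block gave 18 calls, 0 of them in the pathway (limma, Aldh3a2 0.95, adjusted p = 0.0883, and Sgms1 0.22, adjusted p = 0.537). The pathway lists had 1 call, but 2 with the filter on all arrays, a fixed slide block, trend and robust eBayes or without slide 5, 3 with a random slide block, 0 without slide 2, and 1 to 2 when arrays were left out. Of directions, Cers5 turned to 0.0123 (normexp), 0.0310 (median scaling) and 0.0667 (without slide 1), Asah1 to 0.0362 (median scaling), 0.0782 (mean of probes), 0.122 and 0.0566 (without slides 1 and 4), Degs1 to −0.00869 (quantile), −0.0115 (unmarked percentile) and −0.0123 (authors' table), Smpd1 to −0.0143 (authors' table) and −0.00354 (without slide 1), A4galt to −0.0109 (normexp) and Sptlc2 minus Sptlc1 to −0.00737 (normexp). Leaving out arrays gave −0.0510 to 0.0826 for Cers5, −0.0963 to 0.0647 for Asah1, −0.00523 to 0.102 for Smpd1 and −0.0863 to 0.0240 for Ugcg minus Sgms1. Within slide 1, Cers5 minus Cers2 was −0.377 and Ugcg minus Sgms1 −0.454, and within slide 2 the latter was −0.388. The causes were not tested. Dim probes such as those of Cers6 and Smpd3 are limited by signal over background.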
